A study of Mus musculus with 8 samples.

Results

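Potassium channels of the Kv1 and Kv7 families open at or near the resting voltage and hold back firing, and both families are concentrated on axons and their initial segments. Kv1 channels are tetramers of alpha subunits from the Kcna genes, which mix freely with each other, bind cytoplasmic beta subunits from the Kcnab genes and are clustered along axons by adhesion and scaffold proteins. Kv7 channels are tetramers of subunits from the Kcnq genes, carry the slow M-current that muscarinic receptors shut off, bind calmodulin and are anchored at the initial segment by ankyrin-G. The 8 genes described here, Kcna1, Kcna2, Kcna3, Kcna4, Kcna5, Kcna6, Kcnq3 and Kcnq5, were taken by name from a table of 23335 genes, of which 16531 had at least 1 count, by a rule on names alone that was set with earlier results of these data known.

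The cells were fluorescent interneurons picked by hand from the frontal cortex of 4 female mice, all labelled WT. Chandelier cells (ChC), which contact the axon initial segments of pyramidal cells, came from Nkx2.1-CreER; Ai14 mice given tamoxifen at embryonic day 17.5, so that the red reporter marks cells whose progenitors used Nkx2.1 late. Parvalbumin cells (Pv) came from Pv-ires-Cre; Ai14 mice, in which every cell that uses Pvalb can carry the reporter, basket cells and any parvalbumin-positive chandelier cell included. The label on the tamoxifen induction stands on the samples of both types although it names the Nkx2.1 line. Animal 1 (postnatal day 31) gave ChC batches 1 and 2, animal 2 (day 32) ChC batches 3 and 4, animal 3 (day 29) Pv batches 5 and 6, and animal 4 (day 35) Pv batches 7 and 8, with 16 cells picked per batch. All ChC libraries were sequenced on 1 flow cell and all Pv libraries on another, with a lane for each animal. Cell type, mouse line and flow cell cannot be told apart in this design, and each batch holds cells of 1 animal.

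Of 128 cells 2 had no counts, which left 63 ChC and 63 Pv cells. The values are counts of unique molecular identifiers (UMI), random tags that let each captured transcript be counted once. ChC batches held 499971, 624479, 2742981 and 1236955 UMI in total, and Pv batches 432386, 474648, 350896 and 868922. Single cells held from 1005 to 573067 UMI (median 37005) in ChC and from 2204 to 101881 (median 25698) in Pv, so that ChC batch 3 was by far the deepest. Levels below are UMI per 1000000 UMI of a batch with TMM scaling between batches, called CPM, and mean ± SD is over the 4 batches of a type. The counts are not per length, so levels of the channel genes are not set against each other, and a gene called most abundant has the highest mean CPM over the 8 batches with no correction for length.

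Of 7 markers of the types, Unc5b, Pthlh and Pvalb did not overlap between the batches of the types, and 4 did. Of 3 genes associated with chandelier cells, Unc5b and Pthlh had mean levels of 467 CPM and 396 CPM in ChC batches against 0.800 CPM and 0.612 CPM in Pv batches, while Nkx2-1 overlapped, with ChC batches from 57.5 to 72.4 CPM and Pv batches from 20.3 to 78.4 CPM. Pvalb, the calcium buffer used to label the Pv cells, stood at 126 ± 46.4 CPM (SD, n = 4) in ChC and 959.6 ± 466 CPM (SD, n = 4) in Pv. Kcnc1, the most abundant of the 4 genes associated with Pv basket cells, had the higher mean in ChC (899.7 against 601.6 CPM, below Pvalb and Kcnc2 in Pv). Kcnc2 had 271 ± 156.5 CPM in ChC and 638 ± 440.5 CPM in Pv and Syt2 7.08 ± 5.41 and 32.5 ± 24.3 CPM (SD, n = 4 each), both with overlap. The sums of the 4 genes overlapped between the types, at 1304 ± 515 CPM in ChC and 2231 ± 683 CPM in Pv (SD, n = 4 each). All 10 interneuron markers had counts, Sst in Pv batch 7 only (2.42 CPM). Their summed level, Pvalb included, was 6010 ± 585 CPM (SD, n = 4) in ChC and 6785 ± 2566 CPM (SD, n = 4) in Pv.

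Kv1 and Kv7 genes fell into a measured and an unmeasured group. Kcna1, Kcna2, Kcna6, Kcnq3 and Kcnq5 were counted in both cell types, with 842, 1495, 2303, 1407 and 448 UMI over all cells. Kcna3, Kcna4 and Kcna5 had 0 UMI in all 126 cells. By counting error alone, 0 of 126 cells allows a share of cells with a UMI of up to 2.38%, and 0 of 7231238 UMI allows a pooled level of up to 0.415 CPM. Transcripts that were absent and transcripts whose tags fell outside the annotated gene cannot be told apart by these counts. In mm9, the mouse build of the table, Kcna3 is a single-exon gene at chr3:106839080-106841047 (+), Kcna5 a single-exon gene at chr6:126482569-126485573 (−) and Kcna4 a gene of 2 exons at chr2:107130746-107138661 (+). Each of the 8 genes had 1 row in the table and overlapped no other gene in it on either strand.

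Kcna2, a subunit found in most Kv1 channels of axons, was higher in each Pv batch than in any ChC batch. Its ChC batches 1 to 4 stood at 22.1, 149.8, 47.8 and 85.5 CPM, with a mean of 76.3 ± 55.5 (SD, n = 4). Its Pv batches 5 to 8 stood at 965, 690.1, 293 and 347 CPM, with a mean of 574 ± 314 (SD, n = 4), 7.52 times the ChC mean. The lowest Pv batch was 1.96 times the highest ChC batch. From low to high the batches ran 1, 3, 4, 2 and then 7, 8, 6, 5, so that the types did not interleave and the 2 batches of animal 4 lay below the 2 of animal 3.

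Kcna2 was the 1 gene of the 5 measured whose batches did not overlap between types, and over 6384 genes 1.71% had all 4 Pv batches above all 4 ChC batches. In edgeR's quasi-likelihood test on UMI summed per animal, 2 animals against 2, its log2 fold change (ChC over Pv, as in all that follow) was -2.92 (SE 0.76, adjusted p = 0.603, Benjamini-Hochberg over 9741 genes). That test called 0 genes at an adjusted p under 0.05 (0.00% of those tested), while 623 genes had an unadjusted p under 0.05 and DESeq2 called 156 genes (1.60%). With the 8 batches as samples edgeR called 6 of 6384 genes (0.0940%), and Kcna2 was not among them (adjusted p = 0.286). DESeq2 gave Kcna2 a log2 fold change of -2.99 with an adjusted p of 0.043, and edgeR without animal 4, which called 164 of 11158 genes (1.47%), gave -3.49 with an adjusted p of 0.0127. Across all alternatives the adjusted p of Kcna2 ran from 0.0127 to 0.909 and its sign held.

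The difference in Kcna2 was seen cell by cell. Among cells with at least 10000 UMI, the 48 ChC cells had a median of 61.9 CPM and a highest value of 225 CPM, and the 58 Pv cells had a lowest value of 143 CPM and a median of 496 CPM. Of the 58 Pv cells, 55 lay above the highest ChC cell, and 5 ChC cells reached the lowest Pv cell. At least 1 UMI of Kcna2 was found in 48 of 63 ChC cells (76.2%) and 62 of 63 Pv cells (98.4%). Thinned to 10000 UMI per cell, which left out 15 ChC and 5 Pv cells, the expected share with a UMI was 48.9 ± 23.1% (SD, n = 4 batches) in ChC, from 23.4% to 77.2%, and 98.8 ± 1.35% in Pv, from 97.2% to 99.99%. Cells of 1 batch share their animal and preparation and are not replicates.

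**Figure D1:**
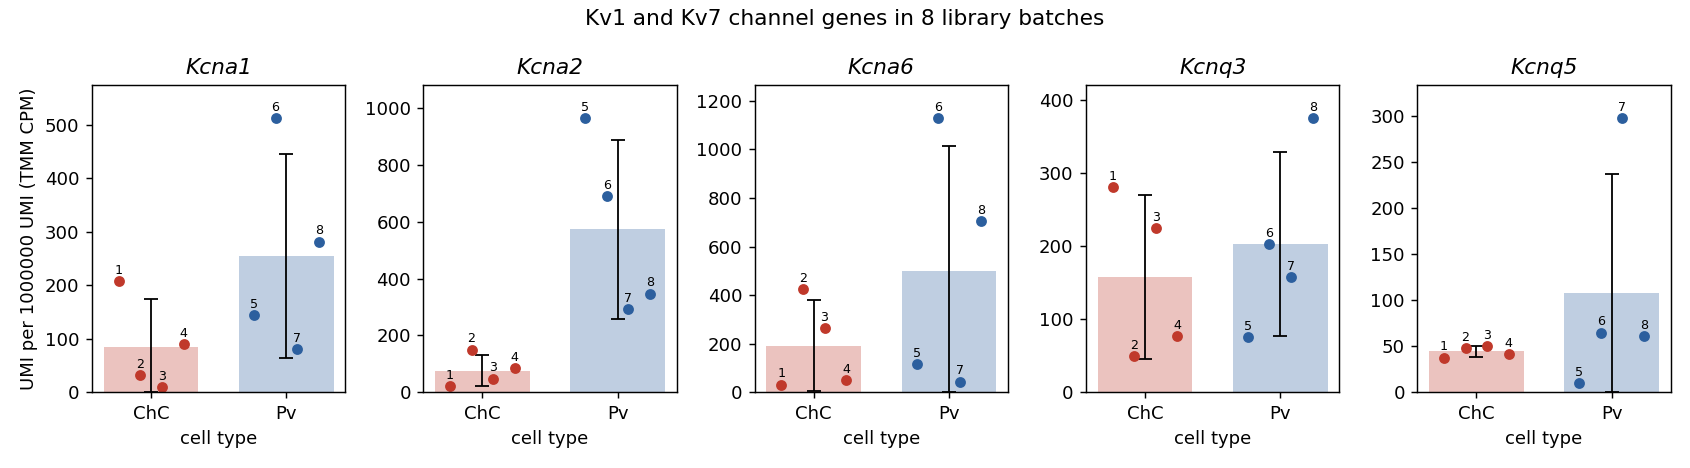
Level of the 5 measured Kv1 and Kv7 genes in each library batch, in CPM with TMM scaling (y axis, from 0) for ChC (red) and Pv (blue). Points are batches with their number, bars the mean of 4 batches and lines ± 1 SD, stopped at 0, and only the Kcna2 batches do not overlap between types, with 149.8 CPM as the highest ChC and 293 CPM as the lowest Pv batch.

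Kcna1, whose loss or mutation causes episodic ataxia and seizures, had overlapping batches. Its ChC batches 1 to 4 stood at 208, 31.6, 9.12 and 90.5 CPM, with a mean of 84.8 ± 89.0 (SD, n = 4). Its Pv batches 5 to 8 stood at 144.5, 513, 80.0 and 282 CPM, with a mean of 255 ± 192 (SD, n = 4). ChC batch 1 lay above Pv batches 5 and 7, and the means differed by less than the SD of the Pv batches. ChC stood against Pv at a log2 fold change of -1.999 (SE 0.89, edgeR adjusted p = 0.780). At least 1 UMI was found in 43 of 63 ChC and 61 of 63 Pv cells, and thinned to 10000 UMI the share was 45.4 ± 36.8% (SD, n = 4 batches) against 85.3 ± 12.4%.

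Kcna6, a further alpha subunit that joins Kcna1 and Kcna2 products in dendrotoxin-sensitive channels, differed more between batches of an animal than between the types. ChC batches 1 to 4 had 31.0, 424, 264 and 49.3 CPM of it, with a mean of 192 ± 187 (SD, n = 4). Pv batches 5 to 8 had 115, 1130, 43.6 and 704 CPM, with a mean of 498 ± 515 (SD, n = 4). Each type held a pair of high and a pair of low batches, and every animal gave 1 of each. ChC stood against Pv at a log2 fold change of -1.37 (SE 0.60, edgeR adjusted p = 0.780), and without Pv batch 6 it was -0.48. Kcna2 and Kcna6 were the 2 of 5 measured genes with an unadjusted p under 0.05, both with Pv higher, a direction in which 2.66% of all tested genes had such a p. For Kcna6 this p was 0.0499 with edgeR and 0.0740 with DESeq2, with which Kcna1 (0.0315) took its place beside Kcna2. DESeq2 gave 942 of 9741 genes such a p, 435 of them higher in Pv. Over the alternatives with 2 animals per type, 1 to 3 of the 5 genes had a p under 0.05. The count was 1 with batches as samples, where 436 of 6384 genes had such a p. It was 3 with library totals in place of TMM, where 585 of 9741 genes did.

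Single cells showed the same split by batch. In animal 1, no cell of batch 1 with at least 10000 UMI exceeded 85.1 CPM of Kcna6 and no such cell of batch 2 was under 293 CPM. In animal 3 the highest cell of batch 5 had 277 CPM and the lowest cell of batch 6 had 616 CPM, and in animal 4 the highest cell of batch 7 had 190 CPM and the lowest cell of batch 8 had 379 CPM. The cells of the 2 batches of an animal thus did not overlap in 3 of 4 animals, and in animal 2 they overlapped between 111 and 126 CPM. The share of cells with a UMI after thinning to 10000 ran from 26.7% to 98.6% over ChC batches and from 31.1% to 100% over Pv batches.

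The spread between the 2 batches of an animal was set beside the spread over genes. On the log2(CPM + 1) scale, the absolute difference between the 2 batches of an animal, as the median of 4 animals, was 3.51 for Kcna6, 2.25 for Kcna1, 1.47 for Kcnq3, 1.31 for Kcnq5 and 0.66 for Kcna2, against a median of 1.39 over 5208 genes with a mean of at least 40 CPM. The absolute difference between the means of the types was 3.05 for Kcna2, 2.02 for Kcna1, 1.13 for Kcna6, 0.48 for Kcnq3 and 0.42 for Kcnq5, against a median of 0.90. For Kcna2 the difference within animals was 2.70 in animal 1, above the 1.58 over genes in that animal, and 0.83, 0.48 and 0.24 in animals 2 to 4, so that the difference between types was larger than each of these. For the other 4 measured genes it was smaller than the median within animals, where means of 4 batches vary less than single batches do. The part of the library preparation in these batch differences was not tested.

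**Figure D2:**
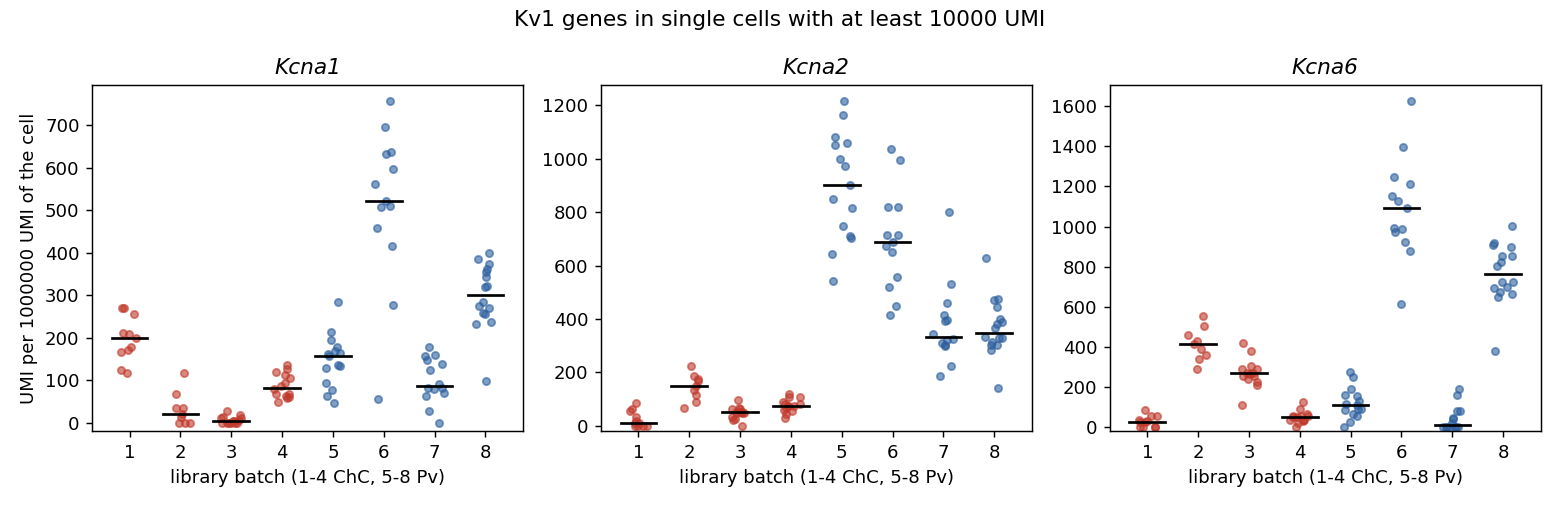
Kcna1, Kcna2 and Kcna6 in single cells with at least 10000 UMI, in UMI per 1000000 UMI of the cell (y axis), by library batch (x axis; 1 to 4 ChC in red, 5 to 8 Pv in blue). Points are cells and black lines batch medians, and the Kcna6 cells of batches 1 and 2, of 5 and 6 and of 7 and 8 form separate clouds, with medians of 26.9 and 413, 109 and 1090, and 11.4 and 763 CPM.

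Kcnq3, an M-channel subunit, had overlapping batches. ChC batches 1 to 4 stood at 281, 49.9, 224 and 76.5 CPM, with a mean of 158 ± 112 (SD, n = 4). Pv batches 5 to 8 stood at 75.9, 203, 158 and 376 CPM, with a mean of 203 ± 126 (SD, n = 4). ChC batches 1 and 3 lay above 3 of the 4 Pv batches, and the highest value was that of Pv batch 8. ChC stood against Pv at a log2 fold change of -0.48 (SE 0.76, edgeR adjusted p = 0.989), and it turned to 0.12 without animal 4, to 0.08 without ChC batch 2 and to 0.10 without Pv batch 8. The thinned share of cells with a UMI was 64.2 ± 27.6% (SD, n = 4 batches) in ChC and 82.1 ± 23.1% in Pv.

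Kcnq5, a further M-channel subunit, differed less across ChC batches than across Pv batches. ChC batches 1 to 4 stood at 37.6, 48.2, 50.3 and 41.1 CPM, with a mean of 44.3 ± 5.96 (SD, n = 4). Pv batches 5 to 8 stood at 9.80, 64.7, 298 and 60.8 CPM, with a mean of 108 ± 129 (SD, n = 4). Batch 7 held more than 4 times the level of the next Pv batch, and batch 5 rested on 4 UMI in 3 of 16 cells (18.8%, exact 95% interval 4.05 to 45.6%). The highest batch was 1.34 times the lowest in ChC and 30.4 times in Pv, and no test of the difference in spread was made. With every cell given the same weight, ChC batches ran from 25.2 to 60.5 CPM and Pv batches from 9.38 to 311 CPM. Without batch 7 the Pv mean was 45.1 CPM, close to that of ChC. ChC stood against Pv at a log2 fold change of -0.93 (SE 1.13, edgeR adjusted p = 0.989), and without animal 4 it was 0.15.

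Markers of other cells were given beside these levels, since batch 7 stood apart in some of them. The 6 pyramidal markers, of which Camk2a was the most abundant and Slc17a6, Neurod6 and Tbr1 were at 0 in all batches, summed to 46.5, 491, 62.7 and 880 CPM in ChC batches 1 to 4 and to 519, 990, 1372 and 155 CPM in Pv batches 5 to 8. Astrocyte markers, led by Slc1a2 and with Gfap at 0, summed to 57.5, 468, 326 and 998 CPM in ChC and to 41.6, 15.1, 1135 and 205 CPM in Pv. Batch 7 thus had the highest Kcnq5 level together with the highest pyramidal and astrocyte sums and the lowest interneuron sum (3414 CPM, next batch 5331 CPM). The part of such RNA in the Kcnq5 level was not tested.

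Sums of the other marker lists are given beside Kcna2 in the same way. Oligodendrocyte markers, led by Mbp with 55.8 CPM in ChC and 56.4 CPM in Pv and with Mag and Mobp at 0 in all batches, summed to 11.1, 8.32, 102.5 and 167 CPM in ChC batches 1 to 4 and to 22.04, 131.5, 153 and 93.9 CPM in Pv batches 5 to 8. The 2 batches lowest in Kcna2, 1 and 3, also had the lowest pyramidal sums, which were mostly Camk2a. Slc17a7 stood at 0, 44.9, 0 and 79.8 CPM in ChC batches 1 to 4. In Pv batches 5 to 8, of which 5 and 6 were the highest in Kcna2, it stood at 7.35, 0, 267 and 22.4 CPM. Other interneuron markers, 8 genes led in ChC by Adarb2 through batch 4 (1558 CPM, at most 25.5 CPM in the other ChC batches) and in Pv by Cck (183 CPM), with Vip at 0, summed to 79.7, 155, 308 and 2709 CPM in ChC and to 118, 519.7, 361 and 639 CPM in Pv. Microglial markers (6 genes, C1qa at 0, P2ry12 the most abundant) were at most 89.6 CPM, in batch 4, and endothelial markers (4 genes, Cldn5 at 0, Flt1 the most abundant) at most 20.0 CPM, in batch 2. The part of RNA from other cells in the Kcna2 level was not tested.

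Most cells held several of the channel transcripts at once. Among cells with at least 10000 UMI, all 5 measured genes were found in 29 of 48 ChC and 31 of 58 Pv cells, and no cell held fewer than 2. Kcna1, Kcna2 and Kcna6 were found together in 32 of 48 ChC and 49 of 58 Pv cells, and every cell held at least 1 of them. Kcnq3 and Kcnq5 were found together in 40 of 48 ChC and 39 of 58 Pv cells, with 16 Pv cells holding Kcnq3 alone. These counts are not thinned, and depth differed between the types.

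Levels of Kcna1 and Kcna6 were related in opposite ways in the pooled cells of the types. Spearman's rho of their cell CPM was -0.73 over 48 ChC cells and 0.81 over 58 Pv cells. Within single batches it ran from -0.54 to 0.24 in ChC and from -0.38 to 0.44 in Pv, with both signs in each type, so the pooled values followed the differences between batches. For Kcna2 and Kcna6 rho was 0.46 in ChC, above 0 in 4 of 4 batches (0.05 to 0.80). In Pv it was 0.07 pooled and from -0.24 to 0.16 in single batches. Kcna2 and Kcnq5 also stood above 0 in 4 of 4 ChC batches (0.13 to 0.49, with 0.21 pooled). The pooled Pv cells gave -0.58 for this pair, while single Pv batches ran from -0.34 to 0.21, with 1 of 4 above 0. Apart from Kcna2 with Kcna6 and Kcna2 with Kcnq5, no pair of measured genes stood above 0 in every batch of a type. For Kcna2 and Kcnq3 the pooled rho was -0.66 in ChC and -0.54 in Pv, with both signs among the batches of each type. For Kcnq3 and Kcnq5 it was 0.07 in ChC and 0.20 in Pv, and no p is given for any of these because cells share a batch.

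Partner genes, 32 genes from the same families or known to bind, cluster or regulate these channels, were matched by name for 29, of which 21 had a count and were tested. Of these 0 were called by edgeR at an adjusted p under 0.05, the same as over all genes (0.00%), and DESeq2 called 0 of them, against 1.60% of all genes. At an unadjusted p under 0.05 they gave 2 genes higher in Pv and 3 higher in ChC, where 2.66% and 3.74% of all tested genes had such a p. Those 3 were Cntnap2, Nedd4l and Lgi1, the last named for it after its values were seen. Lgi1 had a log2 fold change of 3.77 (SE 1.46, edgeR adjusted p = 0.702), and its batches overlapped between types. The median log2 fold change of the 21 partners was -0.59, against 0.06 over all tested genes. With a batch or an animal left out, it ran from -0.785 (without batch 2) to -0.16 (without animal 3). It was -0.38, -0.19 and -0.29 without batches 1, 3 and 6. With the animal as a random effect on batches it was -0.29 (0.106 over all genes). With thinned cells it was -0.325 (-0.001 over all genes). With a batch or an animal left out, the median over all genes ran from -0.31 to 0.57. The 5 auxiliary Kcne genes matched, Kcna7, Kcna10 and Lgi4 had 0 UMI.

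Among Kv1 beta subunits, which bind the inside of the channel, Kcnab2 and Kcnab3 were higher in every Pv batch than in any ChC batch. They made up the 2 of 20 partner genes tested with that pattern (1.71% over all genes), and Kcnab3 is named for it after its values were seen. Kcnab2 stood at 48.7, 33.3, 195 and 141 CPM in ChC batches 1 to 4 and at 568, 634, 448 and 456 CPM in Pv batches 5 to 8 (log2 fold change -2.31, SE 0.82, edgeR adjusted p = 0.673). Its log2 fold change was -3.77 without animal 2 and -1.60 without animal 1. This gene has 2 overlapping rows that were summed, and with the larger row alone its means were 58.1 ± 42.8 and 298 ± 61.8 CPM (SD, n = 4 each). Kcnab3 stood at 0, 171, 98.1 and 52.6 CPM in ChC and at 463, 261, 191 and 273 CPM in Pv (log2 fold change -1.75, SE 0.75, edgeR adjusted p = 0.769). Kcnab1, the third beta subunit, overlapped between types at 278 ± 181 and 465 ± 86.0 CPM (SD, n = 4 each).

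Proteins that cluster Kv1 channels did not share 1 direction. Cntnap2, the neurexin relative that gathers Kv1 channels beside nodes of Ranvier, stood at 3390, 3466, 2454 and 2049 CPM in ChC batches 1 to 4 and at 1131, 1026, 1089 and 1059 CPM in Pv batches 5 to 8, so that all ChC batches were above all Pv batches (3.15% of 6384 genes in that direction). Its log2 fold change was 1.42 (SE 0.43, edgeR adjusted p = 0.616), and its means of 2840 ± 699.7 and 1076 ± 44.7 CPM (SD, n = 4 each) differed by more than either SD. Cntnap2 was thus higher in ChC in the same batches in which Kcna2 was lower. The scaffolds Dlg2 and Dlg4, which bind the tails of Kv1 subunits, overlapped between types, Dlg2 at 2149 ± 565 and 2140 ± 994 CPM and Dlg4 at 414 ± 381 and 666 ± 553 CPM (SD, n = 4, ChC and Pv). Adam22, a membrane protein found with Kv1 channels, overlapped as well, at 165 ± 119 and 352 ± 221 CPM (SD, n = 4 each). Cntnap2, Dlg2 and Adam22 each have several rows that were summed. With the largest row alone their ChC and Pv means were 2930 and 1081, 1614 and 1437, and 131 and 248 CPM. Dlg2 and Adam22 still overlapped and Cntnap2 did not.

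Kv7 partners among the most abundant overlapped between the types, apart from Nedd4l. Ank3, which encodes ankyrin-G, had 499 ± 186 CPM in ChC and 660 ± 166 CPM in Pv (SD, n = 4 each), and Calm2 and Calm3, which encode calmodulin, had ChC means of 1486 and 876 CPM and Pv means of 1489 and 989 CPM. The 2 rows of Ank3 were summed, and the larger row alone gave means of 411 CPM in ChC and 476 CPM in Pv. Nedd4l, a ubiquitin ligase that acts on Kv7 channels, stood at 951.5, 1509, 467 and 330 CPM in ChC batches and at 29.4, 36.7, 313 and 248 CPM in Pv batches (log2 fold change 2.50, SE 0.99, edgeR adjusted p = 0.712). Its 2 overlapping rows were summed, and with the larger row alone its means were 464 ± 294 and 101 ± 83.5 CPM (SD, n = 4 each) in place of 814.5 ± 534 and 157 ± 145 CPM. Its log2 fold change was 4.59 without animal 4 (edgeR adjusted p = 0.00147), 1.49 without animal 1 (0.9999) and 1.68 without animal 3 (0.870). Nedd4l, Cntnap2 and Kcnq1 were the 3 of 20 partners with all ChC batches above all Pv batches (3.15% of 6384 genes in that direction). With library totals in place of TMM, Nedd4l overlapped (lowest ChC batch 324 CPM, highest Pv batch 368 CPM) and so did Kcnq1 (132 and 151 CPM), as both did with every cell given the same weight, while Cntnap2 did not overlap with either. Kcnq1, named for that after its values were seen, shares its locus with an antisense transcript.

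**Figure D3:**
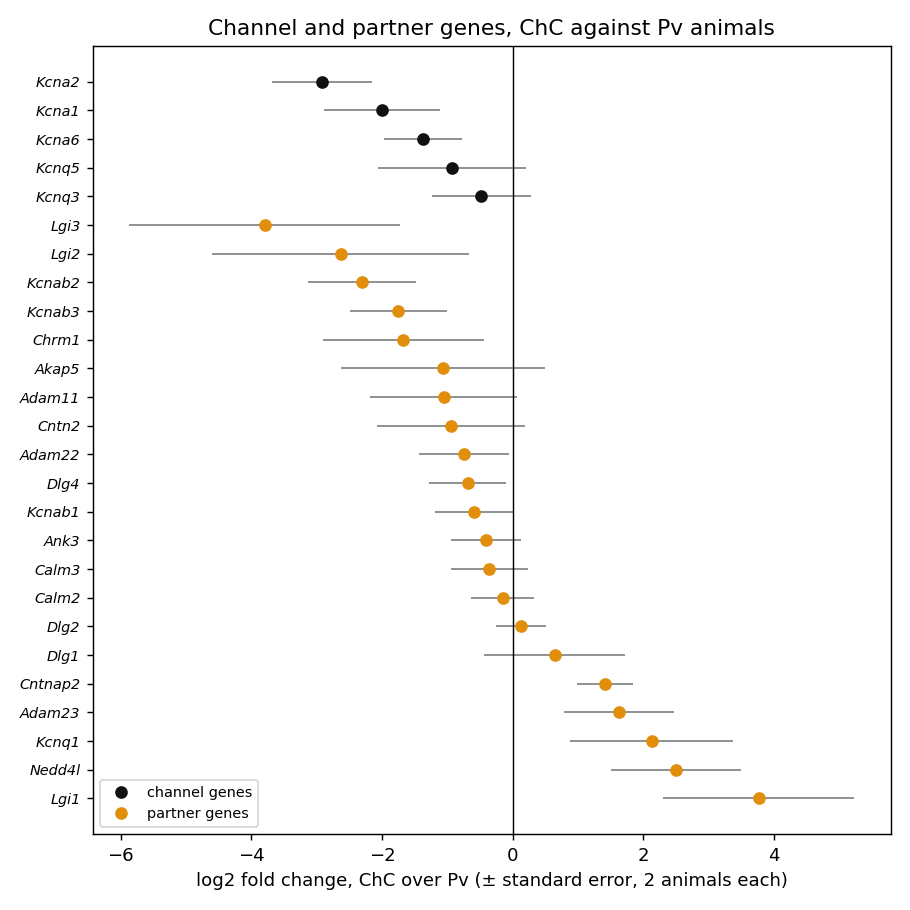
Log2 fold change, ChC over Pv (x axis), of the 5 measured channel genes (black) and the 21 tested partner genes (orange), from edgeR on UMI summed per animal with 2 animals per type. Points are estimates and lines ± 1 standard error, and all 5 channel genes lie below 0, from -2.92 for Kcna2 to -0.48 for Kcnq3, with no gene past an adjusted p under 0.05.

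Genes with the most similar profile over the 8 batches were sought for the 3 channel genes with the most UMI, by Pearson's r of log2(CPM + 1) over 9169 genes. For Kcna2 they were Shroom2 (r = 0.973), Slc35f2 (0.966) and Dgcr6 (0.966). Shroom2, an actin-binding protein, had 19.9, 81.5, 30.3 and 31.2 CPM in ChC batches and 249.8, 220.0, 77.6 and 99.2 CPM in Pv batches. For Kcna6 they were Kbtbd11 (0.965), Isca2 (0.939) and Disp2 (0.928), and Kbtbd11 had 0, 89.8, 41.6 and 0.822 CPM in ChC and 4.90, 341, 7.27 and 212 CPM in Pv, high in the same batches as Kcna6. For Kcnq3 they were Rps10 (0.953), Fam73b (0.939) and Acot13 (0.935). Each r is the highest of many over 8 batches from 4 animals and describes these batches only.

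Of the 6 Kcna genes described, 5 lie near another of them and Kcna4 does not, and neighbours were not counted alike. On chromosome 3 Kcna3, with 0 UMI, ends 63437 bases before Kcna2 at chr3:106904485-106917923 (+, 3 exons), and on chromosome 6 Kcna5, with 0 UMI, lies 100907 bases from Kcna1 at chr6:126586481-126595819 (−, 2 exons), which is followed after 62527 bases by Kcna6 at chr6:126658347-126690692 (−, 2 exons). Kcnq3 lies at chr15:65826477-66117786 (−) and Kcnq5 at chr1:21388484-21952023 (−), each with 15 exons. Coordinates are of mm9, and exon numbers are those of the longest coding transcript in the annotation of the same build.

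Promoter sequence was at hand for 6 of the 8 genes, from RefSeq on GRCm38.p6, a later build whose coordinates differ from those of mm9. The 250 bases before the start of Kcna2 and Kcna3 are shown as neighbours of which 1 was counted and 1 was not, and those of Kcna6 as the gene with the most UMI. Capitals mark the GC box (GGGCGG) and the E-box (CANNTG) on either strand, and the TATA box (TATAAA) and CCAAT box (CCAAT) were also searched. The windows are Kcna2 at chr3:107101317-107101566 (+), Kcna3 at chr3:107035912-107036161 (+) and Kcna6 at chr6:126740675-126740924 (−).
Kcna2: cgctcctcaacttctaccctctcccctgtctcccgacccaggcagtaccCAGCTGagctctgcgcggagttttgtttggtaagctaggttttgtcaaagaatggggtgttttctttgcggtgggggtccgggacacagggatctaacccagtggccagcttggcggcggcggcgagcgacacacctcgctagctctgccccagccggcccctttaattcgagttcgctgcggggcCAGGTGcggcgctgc
Kcna3: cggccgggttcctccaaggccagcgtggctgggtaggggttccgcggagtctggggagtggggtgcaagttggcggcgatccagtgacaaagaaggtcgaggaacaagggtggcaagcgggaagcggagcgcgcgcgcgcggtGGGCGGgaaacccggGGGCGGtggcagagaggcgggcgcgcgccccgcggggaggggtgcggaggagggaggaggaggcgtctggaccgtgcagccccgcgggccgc
Kcna6: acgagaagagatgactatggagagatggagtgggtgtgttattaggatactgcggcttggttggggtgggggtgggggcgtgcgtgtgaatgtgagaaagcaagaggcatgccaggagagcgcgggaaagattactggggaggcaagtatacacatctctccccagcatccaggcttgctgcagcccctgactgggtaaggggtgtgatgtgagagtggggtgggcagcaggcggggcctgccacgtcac
The Kcna2 window held 2 E-box matches, the Kcna3 window 2 GC box matches and the Kcna6 window none, and none of the 3 held a TATA or CCAAT box match. Over 32851 promoter windows of the same length 32.7% held a GC box match, 66.2% an E-box match, 12.4% a TATA box match and 33.9% a CCAAT box match. G and C made up 62.4% of the Kcna2 window, 74.4% of the Kcna3 window and 58.8% of the Kcna6 window, against a median of 52.4%, with 18, 31 and 8 CG pairs against a median of 6. These matches are descriptions of letters in the windows only.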

How the data were processed

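Linear amplification and sequencing gave reads that the authors aligned to mm9 with Bowtie 0.12.7, and they counted each random tag once per gene and cell. The deposited values are therefore raw UMI counts per transcript and cell, for 27207 transcripts and 128 cells. The members and the lists were chosen with earlier results of these data known.

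Rows of a gene name were summed, rows identical in every cell once (2641 genes had several rows, identical for 1295), so that a tag in an exon shared by rows may be counted more than once. Cells without a count were left out. Counts were summed per animal and tested with edgeR 4.0.16 in R 4.3.3 (TMM, filterByExpr, quasi-likelihood test, Benjamini-Hochberg adjustment, threshold 0.05). Standard errors given with edgeR were derived from its F statistic, as the absolute log2 fold change over the square root of F. Batches of an animal are not independent, so batch values were not tested in the main fit. The edgeR fit with batches as samples, which ignores this, was run as an alternative only. Alternatives were DESeq2 1.42.0, limma 3.58.1 with the animal as a random effect on batches, other filters, scalings, rows and cell sets, and leaving out each batch and animal.

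Some partner genes of the list fixed beforehand are not reported here, and partner counts cover the rest. Named partners were those past the threshold or among the 10 most abundant of these. Kcnab3, Kcnq1, Lgi1 and the partners with 0 UMI were named after their values were seen. Similar genes needed at least 5 CPM in at least 4 batches. Shares after thinning are hypergeometric expectations, intervals are exact Clopper-Pearson, and limits for a count of 0 use 3 counts. Intervals and limits cover counting error only. The 2 batches of each animal, the picking of labelled cells and the shallow cells limit what can be seen. Cells carry names and no barcodes, so barcodes shared between libraries could not be counted.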

Additional observations from a re-analysis of the deposited data

Results flagged for a closer look

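In groups of 4 batches, a batch was singled out when its gap to the nearest other batch was large for the range of the group (Dixon's 95% critical value). For 4 independent batches chance gives this in about 1 in 20 groups, and 5 of 60 groups had it. Batches here come in pairs from an animal, so the chance share is a rough guide only. Among the channel genes it held for the thinned share of cells with a UMI of Kcnq3, which was 47.93% in Pv batch 5 and 90.7% or more in the other Pv batches. Among partners it held for Calm2, at 2310 CPM in ChC batch 1 against 1300 CPM in the next batch. Among markers it held for the other interneuron sum of 2709 CPM in ChC batch 4 (next batch 308 CPM), the microglial sum of 89.64 CPM in ChC batch 4 (next batch 4.38 CPM) and the astrocyte sum of 1135 CPM in Pv batch 7 (next batch 205 CPM). Their part in the channel levels was not tested. Without batch 1 the log2 fold change of Kcna2 was -2.49, without batch 4 it was -2.99, without batch 5 it was -2.78 and without batch 7 it was -2.94.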

How the results depend on the processing

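The number of genes called between ChC and Pv was 0 with edgeR on animals and moved to 156 with DESeq2, 86 without a filter on low counts, 6 with batches as samples and 6 with batches and the animal as a random effect. Leaving out a batch or an animal gave 0 to 164 genes, the highest without animal 4. With 1 animal left in a type, that animal is assumed to vary like the others. The estimated correlation within animals in the random effect fit was -0.04.

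Kcna1, Kcna2 and Kcna6 were lower in ChC in all 20 alternatives. Kcna2 passed the threshold with DESeq2 (log2 fold change -2.99) and without animal 4. Leaving out a batch or animal gave -3.11 to -1.13 for Kcna1, -3.79 to -2.08 for Kcna2, -2.34 to -0.48 for Kcna6, -1.01 to 0.12 for Kcnq3 and -1.90 to 0.15 for Kcnq5, so that the last 2 turned sign. Of the 10 most abundant partners 4 turned sign in some alternative, as did 5 of the 11 other partners tested. Dlg2 gave -0.0178 with batches as samples, -0.10 with thinned cells and -0.33 to 0.56 with a batch or animal left out. Calm2 gave 0.00544 with the random effect, 0.10 with thinned cells and -0.58 to 0.39 with a batch or animal left out, where Calm3 gave -1.18 to 0.15 and Dlg4 -1.64 to 0.19. Partners called were 2 of 21 without animal 4 (Nedd4l and Kcnq1), where 1.47% of all genes were called, and 0 in the other alternatives. The causes were not tested.

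Mean levels of the 5 measured channel genes moved by less than 1 SD in all 70 alternatives. With library totals, every cell given the same weight or the largest row alone, this could have failed and did not. The other alternatives left out 1 batch, which cannot move a mean by 1 SD of the same batches. For them the rule could not fail and says nothing about how stable these mean levels were. Leaving out 1 batch still moved some by over 1.5 times, Kcna1 to 43.7 CPM in ChC (without batch 1) and 169 CPM in Pv (without batch 6), Kcna6 to 115 CPM in ChC (without batch 2) and 288 CPM in Pv (without batch 6) and Kcnq5 to 45.1 CPM in Pv (without batch 7). Thinning to 5000 in place of 10000 UMI also took in the cells between these depths. It lowered the share by more than 1 SD for Kcna1 in Pv (66.1%), Kcna2 in Pv (89.7%) and Kcnq5 in ChC (21.1%). In ChC batch 3 the Kcna1 share rose, from 6.76% over 14 cells to 8.67% over 16 cells. The 3 counts behind a limit of 0 correspond to 1.09 to 8.55 CPM in a single batch.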
